A study of Mus musculus with 8 samples.

Results

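Expression was compared between mouse embryonic stem cells carrying shDnmt3L2, a short hairpin RNA against Dnmt3l, and the same cells carrying shGFP, a control hairpin against the jellyfish reporter GFP. The arrays were chosen by their labels, 2 with shDnmt3L2 and 2 with shGFP, out of 8 in all, and 10930 genes detected on at least 2 arrays were tested. The other 4 arrays carried 2 further hairpins against Dnmt3l (shDnmt3L1 and shDnmt3L3, 2 arrays each). All cells were E14, a line from the inner cell mass of the mouse blastocyst, grown with serum and the cytokine LIF, transfected with a hairpin and selected with puromycin for 3 days before RNA was taken, so the shGFP cells went through transfection and drug selection too. The labels number 2 replicates per group but do not state that each was its own culture. The p-values therefore reflect how far these particular arrays differ from each other, and that spread may be technical. The sources used here give neither the hairpin sequences nor whether the selected cells were a pool or a clone.

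Dnmt3l encodes a relative of the DNA methyltransferases that has no catalytic activity of its own. It binds the enzymes Dnmt3a and Dnmt3b and stimulates their methylation of cytosine in CpG dinucleotides, and its loss in mice prevents the setting of maternal imprints in oocytes and the silencing of retrotransposons in male germ cells. Embryonic stem cells express it strongly, as do germ cells.

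Each value is a normalized log2 intensity of an Illumina BeadChip probe, on which a difference of 1 is a 2-fold difference, and differences are shDnmt3L2 minus shGFP with their standard error (SE). A gene is said to have risen or fallen, or to be called, at a Benjamini-Hochberg adjusted p under 0.05 over all 10930 genes in limma's moderated test. The 8 arrays had medians of 96.1 to 104 intensity units and 18111 to 19241 detected probes. Across genes, which are not independent replicates, the 2 shDnmt3L2 arrays correlated at 0.997, the 2 shGFP arrays at 0.996, and arrays of these 2 groups with each other at 0.981 to 0.982. With 2 arrays per group, the number of arrays limits the precision of every value.

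The cell type label was checked first. All 10 stem cell markers, among them Pou5f1, Sox2, Nanog and Zfp42, were detected on all 4 arrays, with summed linear levels of 70930 to 71310 with shDnmt3L2 and 66520 to 67700 with shGFP. Of the markers of other cells, 6 of 8 for fibroblasts or feeder cells (Col1a1, Col1a2, Col3a1, Lum, Dcn and Postn) were detected on none of the 4 arrays. The same held for Gata4, Gata6 and Sox17 of primitive endoderm, for Cdx2, Elf5 and Gata3 of trophectoderm, for Mixl1, Mesp1 and Kdr of mesoderm, and for Pax6 and Sox1 of neuroectoderm. Pdgfrb of fibroblasts and Pdgfra of primitive endoderm were each detected on 1 shGFP array and on no shDnmt3L2 array. Thy1, also a fibroblast marker, was detected throughout and was higher with shDnmt3L2 by 0.35 ± 0.08. Nes, a neural progenitor filament, was detected throughout and was higher by 0.57 ± 0.13 on the probe used. The summed fibroblast markers ran from 260.6 to 275.1 with shDnmt3L2 and from 221 to 226.8 with shGFP, and the part of such cells in the results was not tested. In bulk RNA, fewer cells of a type and less RNA per cell cannot be told apart.

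Dnmt3l, the targeted gene, had log2 intensities of 10.73 and 10.84 with shDnmt3L2, against 11.87 and 11.97 with shGFP. Both knockdown arrays lay below both controls. The difference was -1.14 ± 0.09 (limma, adjusted p = 7.10e-05), which left 45.4% of the shGFP level, and a second Dnmt3l probe left 41.7%. Set directly against the other hairpins, Dnmt3l was higher with shDnmt3L2 than with shDnmt3L3 by 1.52 (limma, adjusted p = 9.79e-06). Its difference from shDnmt3L1 was 0.30 ± 0.09 and missed the threshold (limma, adjusted p = 0.0667), with 0.13 on the second probe. The data therefore place the knockdown by shDnmt3L2 as milder than that by shDnmt3L3, while its order relative to shDnmt3L1 was not resolved.

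**Figure D1:**
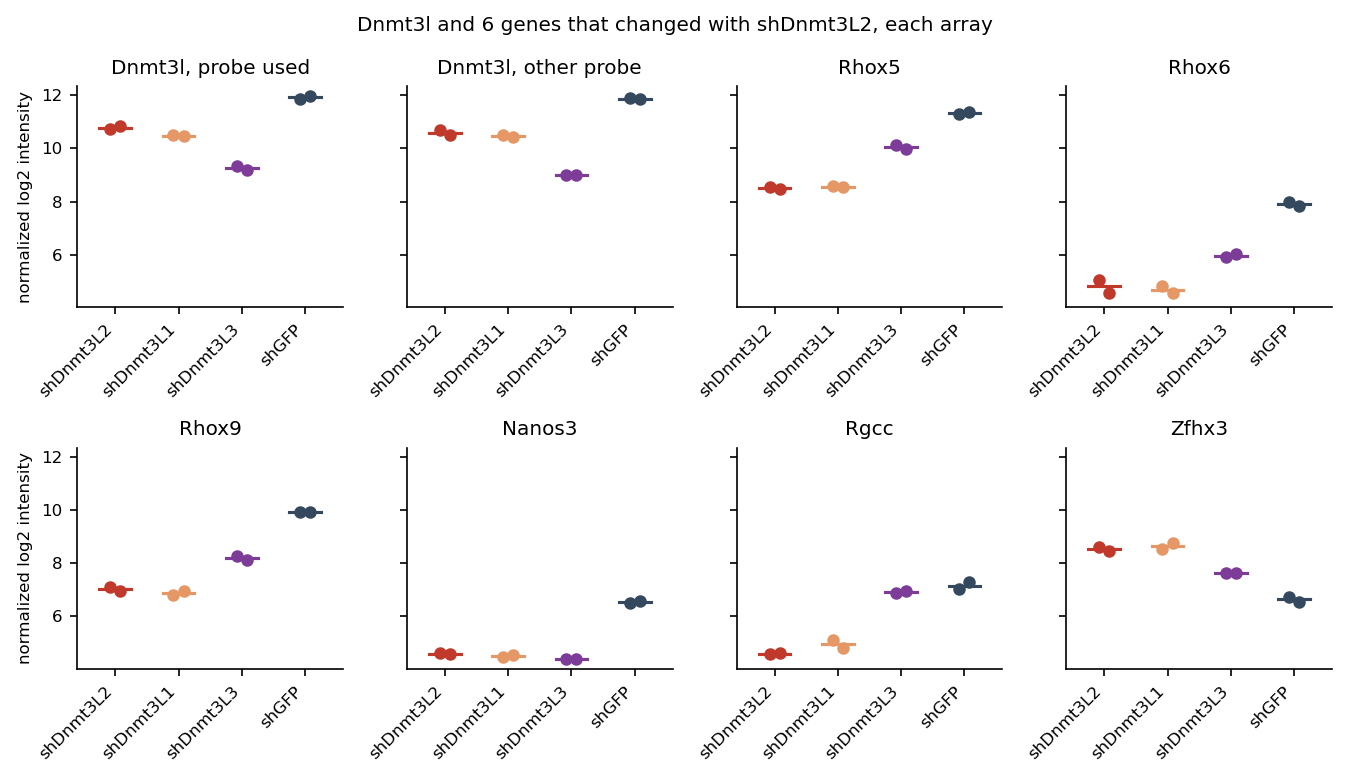
Normalized log2 intensity (y axis) on each array for both Dnmt3l probes and 6 genes that changed with shDnmt3L2. Points are single arrays and short lines are group means, in the order shDnmt3L2, shDnmt3L1, shDnmt3L3 and shGFP. Dnmt3l is 10.73 and 10.84 with shDnmt3L2 and 11.87 and 11.97 with shGFP, and the 3 Rhox genes are lower with shDnmt3L2 than with shDnmt3L3.

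At this knockdown 4280 of 10930 genes were called, or 39.2% of those tested. Of them, 2275 rose (20.8% of all genes tested) and 2005 fell (18.3%). The changes were small for most genes, with a median size of 0.45 among the calls and a median SE of 0.10 over all genes. At least 1.5-fold changes were found for 698 genes that rose (6.39%) and 463 that fell (4.24%), and at least 2-fold changes for 128 (1.17%) and 46 (0.421%). Higher calls made up 53.2% of all calls, and 66.4% when the arrays were scaled by their medians in place of quantile normalization, which moved the median over all genes to 0.07 from 0.00. Against the same shGFP arrays, 47.9% of genes were called with shDnmt3L1 and 52.2% with shDnmt3L3. These percentages share the shGFP arrays, so the hairpins were also compared directly. Between shDnmt3L2 and shDnmt3L1, 880 genes differed (8.05%). Between shDnmt3L2 and shDnmt3L3, 4610 did (42.2%).

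**Figure D2:**
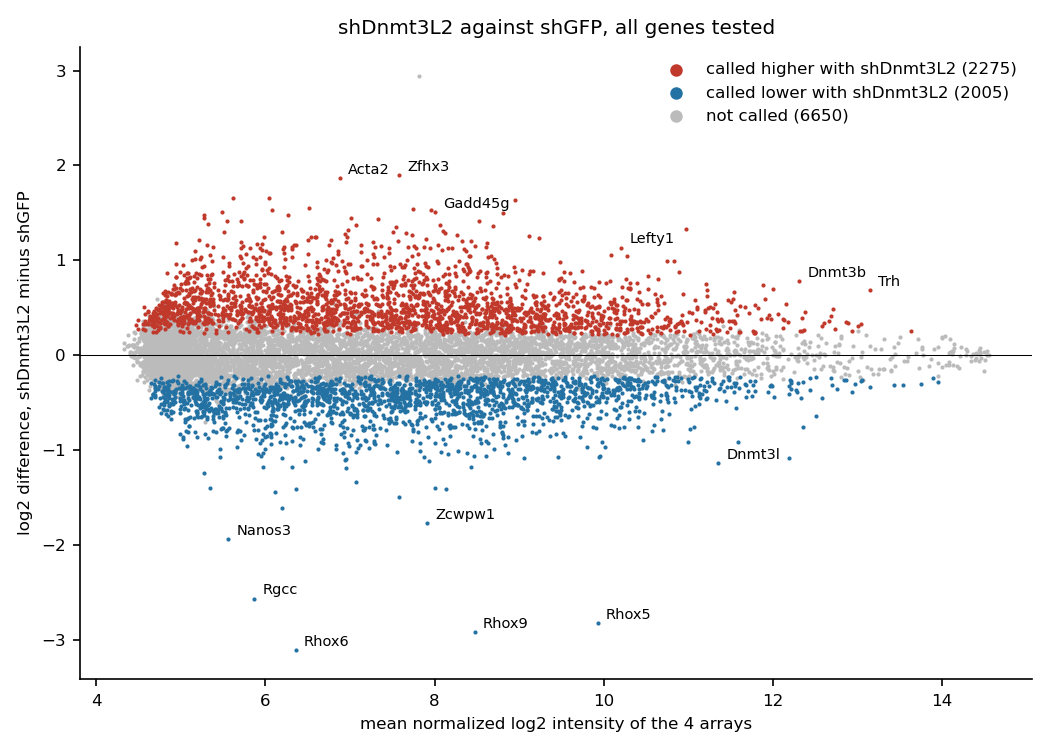
Difference in normalized log2 intensity, shDnmt3L2 minus shGFP (y axis), against the mean of the 4 arrays (x axis), 1 point per gene for all 10930 tested. Red points rose (2275), blue points fell (2005) and grey points were not called. The Rhox genes, Rgcc and Nanos3 lie below the other falls, and the grey point near the top is Cox6b2 at 2.95.

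The largest falls were in X-linked homeobox genes of the Rhox cluster, transcription factors expressed in testis, epididymis, ovary and placenta. Rhox5, the first member described and known to be silenced by DNA methylation in many adult mouse tissues, had 8.54 and 8.49 with shDnmt3L2, against 11.30 and 11.37 with shGFP. It fell by 2.83 ± 0.08 on the log2 scale (limma, adjusted p = 1.45e-06), to 14.1% of the control level. Rhox9 had 7.09 and 6.94 with shDnmt3L2, against 9.94 and 9.93 with shGFP, and fell by 2.92 ± 0.09. Rhox6 had 5.03 and 4.57 with shDnmt3L2, the lower array not above background, against 8.0 and 7.83 with shGFP, and fell by 3.11 ± 0.15. Rhox13 fell less, by 0.79 ± 0.10, and Rhox10 differed by 0.18 without being called. So 4 of the 5 Rhox genes tested fell, beside 18.3% of all genes. Rhox6 and Rhox9 are close in sequence, and how far their probes read each other's transcript was not tested.

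The 3 Rhox genes with the largest falls did not follow the order of Dnmt3l. With shDnmt3L3, where Dnmt3l was lower, Rhox5 differed from shGFP by -1.28, Rhox9 by -1.74 and Rhox6 by -1.95. Set directly against shDnmt3L3, shDnmt3L2 cells had lower Rhox5 by -1.55 (limma, adjusted p = 6.59e-06), lower Rhox9 by -1.18 (adjusted p = 4.04e-05) and lower Rhox6 by -1.16 (adjusted p = 0.000514). Against shDnmt3L1 the same genes differed by -0.04, 0.13 and 0.12 in the order Rhox5, Rhox9 and Rhox6, none of them called. The other 2 members differed from these: Rhox10 was higher with shDnmt3L2 than with shDnmt3L3 by 0.61 (limma, adjusted p = 0.000935), and Rhox13 differed by 0.01, not called.

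Rgcc, a regulator of the cell cycle that responds to complement, showed the widest gap between shDnmt3L2 and shDnmt3L3 among the 15 largest falls. It was not above background with shDnmt3L2 (4.57 and 4.6) and had 7.02 and 7.29 with shGFP, which makes it at least 5.03-fold lower (limma, adjusted p = 2.17e-05). With shDnmt3L3 it had 6.86 and 6.96, close to shGFP, and was at least 4.25-fold lower with shDnmt3L2 in the direct comparison (adjusted p = 6.59e-06). Nanos3, an RNA-binding protein that primordial germ cells need to survive, was not above background with shDnmt3L2 (4.61 and 4.57) and had 6.51 and 6.56 with shGFP. It was at least 3.28-fold lower (limma, adjusted p = 5.18e-06). Nanos3 was not above background with shDnmt3L1 or shDnmt3L3 either, so the 3 hairpins cannot be ranked on it. It passed the detection filter only through the shGFP arrays. Its fall therefore follows largely from that selection, and the p-value is no separate support for it. Zcwpw1, a reader of histone methylation that acts in meiosis, had 6.97 and 7.07 with shDnmt3L2, against 8.85 and 8.74 with shGFP, and a second probe gave -1.85 beside -1.77. For those 3 genes both shDnmt3L2 arrays lay below both shGFP arrays, as they did for 33.7% of all genes tested, while both lay above for 36.1%.

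The remaining 9 of the 15 largest falls were between -1.24 and -1.62. Msc, a repressor of the basic helix-loop-helix family, fell by 1.5 ± 0.08 with shDnmt3L2 and was higher than with shDnmt3L1 by 1.22 in the direct comparison. Dtx3l, a ubiquitin ligase of the interferon response, fell by 1.34 ± 0.09. Esam, an adhesion molecule of endothelium and platelets, was not above background with shDnmt3L2 and was at least 2.33-fold lower. Aass, the first enzyme of lysine breakdown, was not above background either and was at least 2.10-fold lower. Beyond both shGFP arrays Aass was detected on only 1 array, with shDnmt3L1. It thus passed the detection filter through shGFP, and its fall follows largely from that selection. Ocel1, Dapk2, a kinase of cell death, and Tsacc fell by 1.44, 1.41 and 1.41. Rassf5 (-1.62 on the probe used) and Fam220a (-1.41) had other probes at -0.07 and -0.05, so their falls rest on the probe chosen.

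Rises were smaller than the largest falls. Zfhx3, a large transcription factor with zinc fingers and homeodomains, led them with 8.60 and 8.46 with shDnmt3L2, against 6.73 and 6.53 with shGFP, a rise of 1.90 ± 0.10 (limma, adjusted p = 2.69e-05), and its other probes gave 0.75 and 1.75. Acta2, the smooth muscle actin, had 7.69 and 7.93 with shDnmt3L2, against 5.93 and 5.96 with shGFP. It rose by 1.87 ± 0.09, with 3 other probes between 0.70 and 0.92, and was higher than with shDnmt3L3 by 1.03 but lower than with shDnmt3L1 by -0.47, both called. Gm428 rose by 1.65 ± 0.09. Gadd45g, a stress-induced protein linked to active DNA demethylation, had 8.81 and 8.70 with shDnmt3L2, against 7.25 and 7.24 with shGFP. It rose by 1.51 ± 0.09 and was higher than with shDnmt3L3 by 1.33 (adjusted p = 1.83e-05).

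Tenm3, a teneurin of neuronal wiring, rose by 1.53 ± 0.14 with shDnmt3L2 and differed from shGFP by -0.06 with shDnmt3L3, a direct difference of 1.59 (limma, adjusted p = 6.77e-05). Rab11fip5, an effector of recycling endosomes, went the other way between the hairpins: it rose by 1.48 ± 0.09 with shDnmt3L2 and was lower than with shDnmt3L3 by -0.69 (adjusted p = 0.000478). Add3, a membrane skeleton protein, rose by 1.55 ± 0.08 and differed from shDnmt3L3 by less than its SE. The other 8 were Pramel20 (1.65), Tnfrsf22 (1.64), BC147527 (1.55), the ubiquitin ligase Rnf130 (1.53), Tmem92 (1.51), Zscan4c (1.5), the acyl-CoA thioesterase Them5 and the rod transducin subunit Gnat1. Them5 and Gnat1 were not above background with shGFP, at log2 intensities of 4.63 and 4.46 and of 4.48 and 4.62, and were at least 2.25-fold and 2.22-fold higher with shDnmt3L2. Gnat1 passed the detection filter through shDnmt3L2, the group where it is high, so its rise follows largely from that selection. Tnfrsf22 rests on 1 probe, since its 3 others gave -0.10, 0.33 and -0.14. Cox6b2, a testis form of a cytochrome oxidase subunit, had a difference of 2.95 ± 1.05 but was not called, with 9.29 and 9.28 with shDnmt3L2 and 8.51 and 4.17 with shGFP.

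**Figure D3:**
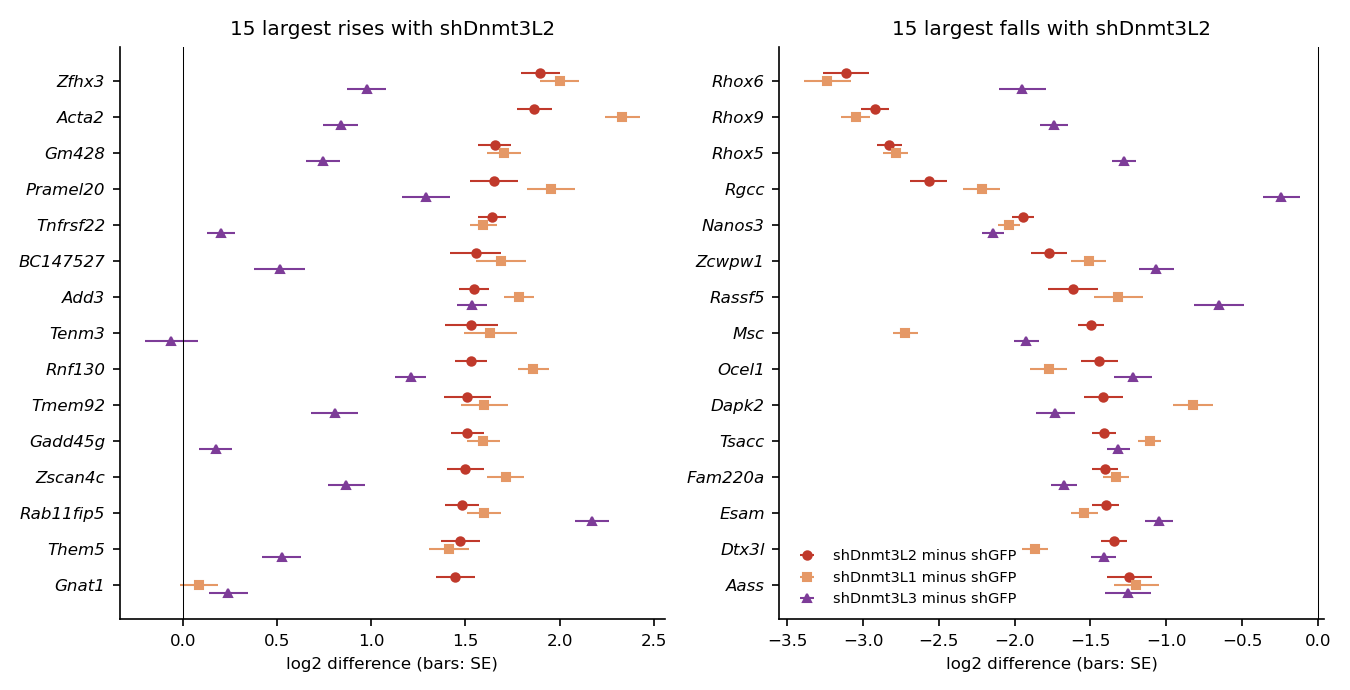
Log2 difference from shGFP (x axis, bars are SE) of the 15 largest rises (left) and 15 largest falls (right) with shDnmt3L2, shown beside the values for shDnmt3L1 and shDnmt3L3, which share the shGFP arrays. Rgcc is at -2.57 with shDnmt3L2 and -0.24 with shDnmt3L3, and Gnat1 is at 1.45 with shDnmt3L2 and 0.09 with shDnmt3L1.

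Since Dnmt3l acts through CpG methylation, the promoters of the 3 largest falls and the 3 largest rises that have an entry in RefSeq's promoter table are printed to show how unlike they are in CpG content. Each runs from 250 bases before to 50 after the annotated start (build GRCm38.p6, given 5′ to 3′ on the gene's strand), and capitals mark every CG dinucleotide, the motif that was searched and that reads the same on both strands. Rhox6 and Rhox9, which fell more than Rhox5, have no entry there and are not printed. The falls come first.
Rhox5, chrX:37754358-37754657, plus strand: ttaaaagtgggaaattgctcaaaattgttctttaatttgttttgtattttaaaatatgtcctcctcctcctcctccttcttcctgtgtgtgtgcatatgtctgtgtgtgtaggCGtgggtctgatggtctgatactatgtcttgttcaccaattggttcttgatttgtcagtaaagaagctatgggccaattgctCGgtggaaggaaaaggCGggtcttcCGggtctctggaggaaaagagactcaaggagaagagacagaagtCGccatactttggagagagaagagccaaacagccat
Rgcc, chr14:79301586-79301885, minus strand: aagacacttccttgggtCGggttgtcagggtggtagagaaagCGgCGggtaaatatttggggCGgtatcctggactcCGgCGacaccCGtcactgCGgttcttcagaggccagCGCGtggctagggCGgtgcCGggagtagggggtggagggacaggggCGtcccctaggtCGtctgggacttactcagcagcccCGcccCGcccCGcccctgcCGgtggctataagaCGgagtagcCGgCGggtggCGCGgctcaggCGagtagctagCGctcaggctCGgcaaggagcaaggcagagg
Nanos3, chr8:84176503-84176802, minus strand: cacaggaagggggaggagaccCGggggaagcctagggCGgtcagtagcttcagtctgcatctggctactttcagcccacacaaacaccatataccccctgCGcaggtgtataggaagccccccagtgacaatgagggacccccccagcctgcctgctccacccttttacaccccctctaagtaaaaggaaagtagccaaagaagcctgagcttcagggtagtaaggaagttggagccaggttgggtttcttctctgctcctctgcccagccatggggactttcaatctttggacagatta
The rises follow.
Zfhx3, chr8:108714394-108714693, plus strand: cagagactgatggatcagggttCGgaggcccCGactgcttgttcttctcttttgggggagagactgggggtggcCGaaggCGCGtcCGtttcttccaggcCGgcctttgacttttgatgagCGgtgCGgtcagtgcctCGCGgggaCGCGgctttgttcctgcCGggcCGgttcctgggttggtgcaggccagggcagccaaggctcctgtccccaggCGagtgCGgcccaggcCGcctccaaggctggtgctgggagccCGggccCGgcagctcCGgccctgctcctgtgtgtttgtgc
Acta2, chr19:34255324-34255623, minus strand: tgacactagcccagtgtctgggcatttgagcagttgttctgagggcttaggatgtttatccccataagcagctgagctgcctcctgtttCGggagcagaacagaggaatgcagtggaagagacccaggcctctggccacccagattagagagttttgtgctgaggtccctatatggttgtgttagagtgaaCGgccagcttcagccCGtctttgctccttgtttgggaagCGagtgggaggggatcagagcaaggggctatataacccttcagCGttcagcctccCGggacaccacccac
Gm428, chr4:73683264-73683563, plus strand: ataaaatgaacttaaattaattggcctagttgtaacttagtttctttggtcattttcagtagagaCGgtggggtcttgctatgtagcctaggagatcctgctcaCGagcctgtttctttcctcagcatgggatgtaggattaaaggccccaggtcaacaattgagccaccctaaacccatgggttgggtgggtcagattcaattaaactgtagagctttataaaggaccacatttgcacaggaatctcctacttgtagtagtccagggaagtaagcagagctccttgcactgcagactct
Rhox5 holds 5 CG and Nanos3 holds 3, while Rgcc holds 26. Among the rises Zfhx3 holds 21, Acta2 6 and Gm428 2. Over all genes the CG counts of the changed genes lay near the rest: the median was 21 for the 537 promoters of genes that rose at least 1.5-fold, 18 for the 364 of genes that fell at least 1.5-fold and 20 for all 8840 promoters of tested genes. At most 5 CG were found in 12.3% of the promoters that belong to rises, 11.3% of those that belong to falls and 10.6% of all, and at least 1 CG was present in 99.3% of all. A CG in the letters says nothing of whether it was methylated in these cells, which was not measured.

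The DNA methylation genes themselves changed in both directions, with 2 of 11 higher and 4 lower, beside 20.8% higher and 18.3% lower over all genes. Dnmt3b, a catalytic partner of Dnmt3l, had 12.64 and 12.77 with shDnmt3L2, against 11.86 and 11.98 with shGFP. It rose by 0.78 ± 0.09 (limma, adjusted p = 0.000394), with 0.46 on a second probe, and the direct difference from shDnmt3L3, where it was lower than with shGFP, was 1.78 (adjusted p = 6.07e-06). Dnmt1, which copies methylation after replication, differed by 0.08 ± 0.12 and was not called, and Dnmt3a did not pass the detection filter. Uhrf2, a reader of modified cytosine, rose by 0.51, and Mbd1, which binds methylated DNA, fell by 0.62. Of 8 genes of active demethylation 2 rose (25%) and 4 fell (50%). Tet1, which oxidizes methylated cytosine, rose by 0.66 ± 0.10 and was also higher than with shDnmt3L1 by 0.46. The glycosylase Tdg, which removes the oxidized bases, fell by 0.62 ± 0.12, and Gadd45b fell by 0.79 while Gadd45g rose.

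Germ cell genes, whose promoters are often CpG methylated outside the germ line, showed no common direction among those that passed the detection filter. Regulators of primordial germ cells numbered 13, of which 4 rose and 3 fell, beside 20.8% and 18.3% of all genes (median 0.01, against 0.00 over all genes). Nanos3, given above, is among the falls but passed the detection filter only through the shGFP arrays. Dppa3, a maternal factor that protects methylation, rose by 0.69 ± 0.09. Prdm14, which represses Dnmt3b and Dnmt3l transcription in naive cells, rose by 0.48 ± 0.08. Sox15 fell by 0.53. Prdm1, the master repressor of somatic genes in germ cell precursors, was not above background with shGFP and was at least 1.28-fold higher. Tfap2c, its partner, had a difference of 0.14 that was not called. Of 28 listed germ line genes known to be silenced by methylation, 16 were tested, of which 4 rose and 5 fell. Others, among them Sycp1, Sycp2, Sycp3, Stra8 and Mael, were on the array but did not pass the detection filter. The counts therefore leave them out. The meiotic genes Smc1b and Hormad2 rose by 1.00 ± 0.08 and 1.17 ± 0.10, and Tuba3a by 0.63. Tex11, needed for meiotic crossing over, was not above background with shDnmt3L2 and was at least 1.59-fold lower. Leaving out 1 array of shDnmt3L2 or shGFP replicate 2 turned which direction had more calls in this list.

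Among imprinted genes, which are expressed from 1 parental allele, 4 of 14 paternally expressed genes rose and 1 fell, and 3 of 16 maternally expressed genes rose and 2 fell, beside 20.8% higher and 18.3% lower over all genes, so the maternal count is near the background. Igf2, a growth factor expressed from the paternal allele, had 8.29 and 8.21 with shDnmt3L2, against 7.16 and 7.26 with shGFP. It rose by 1.04 ± 0.08 (limma, adjusted p = 6.27e-05) and was lower than with shDnmt3L1 by -0.72. Grb10, an adaptor that restrains growth, rose by 0.62 and Dlk1, a Notch family ligand, by 0.57, while Peg10 fell by 0.52. The rises of Grb10 and Dlk1 rest on the probe chosen. Zdbf2 rose by 0.39 and was higher than with either of the other hairpins, by 0.69 and 1.22 in the order shDnmt3L1 and shDnmt3L3.

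Pluripotency genes rose more often than they fell. Of 27 core and naive pluripotency genes 11 rose and 4 fell, beside 20.8% and 18.3% of all genes. Their median was 0.21, or 0.13 without shGFP replicate 1. Nanog had 12.00 and 12.00 with shDnmt3L2 and 12.03 and 11.98 with shGFP, a difference of 0.00 ± 0.07. Pou5f1 was higher by 0.24 ± 0.08 at the edge of the threshold (limma, adjusted p = 0.0479), a call lost in 13 of 19 alternatives, where the adjusted p reached 0.233. Sox2 fell by 0.32 ± 0.09, with 0.06 on a second probe, and lost its call in 4 of 19 alternatives. Esrrb (0.21), Klf4 (0.22) and Zfp42 (0.05) were not called. Sall1 rose by 0.65, Tcl1 by 0.60 and Tbx3, a transcription factor of the naive state, by 0.56. Gbx2, a LIF target, fell by 0.83 ± 0.12 but was higher than with shDnmt3L1 by 1.46 and than with shDnmt3L3 by 0.79. In the direct comparison with shDnmt3L1, 9 of the 27 genes were higher and 0 were lower, among them Esrrb by 0.49 and Klf4 by 0.70, beside 3.27% higher and 4.78% lower over all genes.

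Genes of the primed epiblast, the state after implantation, rose with shDnmt3L2. Of 12 tested, 10 rose and 1 fell, beside 20.8% and 18.3% of all genes, with a median of 0.53. Otx2, the transcription factor that drives exit from the naive state, had 10.99 and 10.98 with shDnmt3L2, against 10.41 and 10.46 with shGFP. It rose by 0.55 ± 0.09. Cldn6, a tight junction protein, rose by 0.77, Zic2 by 0.54 and Pou3f1 by 0.52, and the rise of Zic2 rests on the probe chosen. The growth factor Fgf5 rose by 0.30 ± 0.08, a call lost in 4 of 19 alternatives. In the direct comparison with shDnmt3L3, 11 of the 12 were higher and 0 lower, beside 20.4% higher and 21.8% lower over all genes. Otx2 was higher than with shDnmt3L3 by 1.86, Zic2 by 2.17 and Pou3f1 by 1.60 (limma, adjusted p from 2.12e-06 to 5.45e-06). Fgf5 was not above background with shDnmt3L3 and was at least 2.71-fold higher with shDnmt3L2. Against shDnmt3L1, 1 of the 12 was higher and 2 were lower, beside 3.27% and 4.78% of all genes.

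The NODAL pathway, in which the secreted ligand Nodal signals through activin receptors and Smad proteins and induces its own inhibitors, moved the same way. Of 12 genes 7 rose and 0 fell, beside 20.8% and 18.3% of all genes, with a median of 0.53. The inhibitors Lefty2 and Lefty1 rose by 1.31 ± 0.08 and 1.13 ± 0.08. Lefty1 had 10.82 and 10.73 with shDnmt3L2, against 9.62 and 9.66 with shGFP, and was higher than with shDnmt3L3 by 1.20 (limma, adjusted p = 1.66e-05). The convertases that process Nodal, Pcsk6 and Furin, rose by 1.26 ± 0.08 and 1.11 ± 0.07, with 0.31 on a second Furin probe. In the BMP pathway, a related branch that LIF cultures rely on through serum, 4 of 12 genes rose and 4 fell. The ligand Bmp4 had 7.97 and 7.71 with shDnmt3L2, against 9.03 and 9.0 with shGFP, and fell by 1.18 ± 0.11. The target Id3 fell by 1.18 ± 0.17, while the receptor Bmpr2 and the transducer Smad5 rose by 0.60 and 0.58.

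The ERK feedback genes split as well, with 5 of 14 higher and 6 lower. Etv4 and Spry4, immediate readouts of FGF signalling, fell by 0.90 ± 0.12 and 0.90 ± 0.13, and both were higher than with shDnmt3L1 by 1.10. Egr1 fell by 0.73 and Ier3 by 0.81. Of 21 LIF and STAT3 genes 4 rose and 3 fell, no larger a share than the 20.8% and 18.3% of all genes. Among them the feedback inhibitor Cish rose by 1.16 ± 0.09 and the kinase Jak1 by 0.67. Of 8 Wnt targets 2 rose and 2 fell, among them Sp5 (-0.66) and Tnfrsf19 (0.66).

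All 4 tested genes of the 2-cell-like state, a rare condition of stem cells that resembles the 2-cell embryo, rose, beside 20.8% of all genes. Zscan4c, a telomere factor, had 9.56 and 9.57 with shDnmt3L2, against 8.13 and 8.0 with shGFP, and rose by 1.5 ± 0.10, with 0.85 on a second probe. Tcstv3 rose by 1.14 ± 0.07 and Tcstv1 by 1.07 ± 0.10. All 4 were also higher than with shDnmt3L3, beside 20.4% of all genes, Zscan4c by 0.63 and Tcstv3 by 0.92. None was called against shDnmt3L1. Zscan4c, Tcstv3 and Tcstv1 belong to families of near-identical copies, which these probes may not tell apart, and only 4 of the 14 genes listed passed the detection filter.

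Interferon-response genes fell together, beside 18.3% lower and 20.8% higher over all genes. Of 32 tested 18 fell and 1 rose, with a median of -0.32, and 11 fell without shGFP replicate 1. The guanylate-binding protein Gbp2b had 5.76 and 5.69 with shDnmt3L2, against 6.87 and 6.93 with shGFP, and fell by 1.18 ± 0.08. The RNA sensor Oas1g fell by 1.07 ± 0.10 and the ADP-ribosyl transferase Parp14 by 0.81 ± 0.10. The fall was smaller than with shDnmt3L3 for many of them: in the direct comparison 17 of 32 were higher with shDnmt3L2 and 1 was lower. Over all genes 20.4% were higher and 21.8% lower in that comparison. Gbp2b, not above background with shDnmt3L3, was at least 1.86-fold higher (limma, adjusted p = 3.05e-05). Of 14 antigen presentation and immunoproteasome genes 6 fell and 1 rose. Psmb10, a catalytic subunit of the immunoproteasome, had 9.43 and 9.41 with shDnmt3L2, against 10.55 and 10.42 with shGFP, and fell by 1.07 ± 0.08. H2-D1, a class I heavy chain, fell by 0.50, whereas its light chain B2m rose by 0.49.

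p53 targets rose. Of 30 tested 17 rose and 3 fell, beside 20.8% higher and 18.3% lower over all genes, with a median of 0.31. Ddit4l, an inhibitor of mTOR, had 8.95 and 8.86 with shDnmt3L2, against 7.78 and 7.79 with shGFP, and rose by 1.12 ± 0.08. The detoxifying enzyme Ephx1 rose by 0.88 and Dcxr by 0.70, and the death receptor Fas, not above background with shGFP, was at least 1.62-fold higher. The cell cycle inhibitor Cdkn1a rose by 0.36 ± 0.08 on the probe used, while its other probes gave 0.17 and 0.10 and were not called. Mdm2 (0.23) and Trp53inp1 (0.26) passed narrowly, with adjusted p of 0.0441 and 0.0496 in limma, and lost their calls in 8 and 12 of 19 alternatives. The rise was smaller than with shDnmt3L3, where 15 of the 30 were higher and 2 lower than with shDnmt3L2. Over all genes 21.8% were higher with shDnmt3L3 than with shDnmt3L2 and 20.4% were lower. Cdkn1a differed from shDnmt3L3 by -0.87 and Ephx1 by -0.88. Among 18 apoptosis regulators 4 rose (22.2%), led by Bmf (0.92), and 5 fell (27.8%), among them Bad (-0.78) and cytochrome c, Cycs (-0.73). The share of rises is near that of all genes, and the fall of Cycs rests on the probe chosen.

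Proteasome subunits fell without a member called higher: 17 of 34 fell and 0 rose, beside 18.3% and 20.8% of all genes, with a median of -0.29. The core particle had 9 of 15 genes lower (median -0.35) and the regulatory particle 8 of 19 (median -0.25). Psmb10 of the immunoproteasome, given above, is counted in the core particle too and had the largest fall of this list (-1.07). The list is therefore not separate from the antigen presentation list. Psma5 fell by 0.64 ± 0.08, Psmd7 by 0.56 and Psmc5 by 0.46. Among mitochondrial ribosomal proteins 32 of 70 fell and 5 rose, with a median of -0.20. The large subunit had 24 of 46 lower (median -0.28) and the small subunit 8 of 24 (median -0.18). Mrpl33 fell by 0.78 ± 0.07, and Mrpl55, Mrpl35 and Mrpl24 each by 0.77. Of 69 subunits of oxidative phosphorylation 19 fell and 1 rose, and 10 fell without shDnmt3L2 replicate 2. Assembly factors were dropped from this list after its values were seen, so its counts are not independent of these data. The falls were led by Ndufb10 (-0.94 ± 0.08), Atp5k (-0.79) and Ndufb3 (-0.75), with 8 of 33 lower in complex I and 1 of 12 in complex V. The cytosolic ribosome did not move this way, with 4 of 57 genes higher and 0 lower and a median of 0.02.

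**Figure D4:**
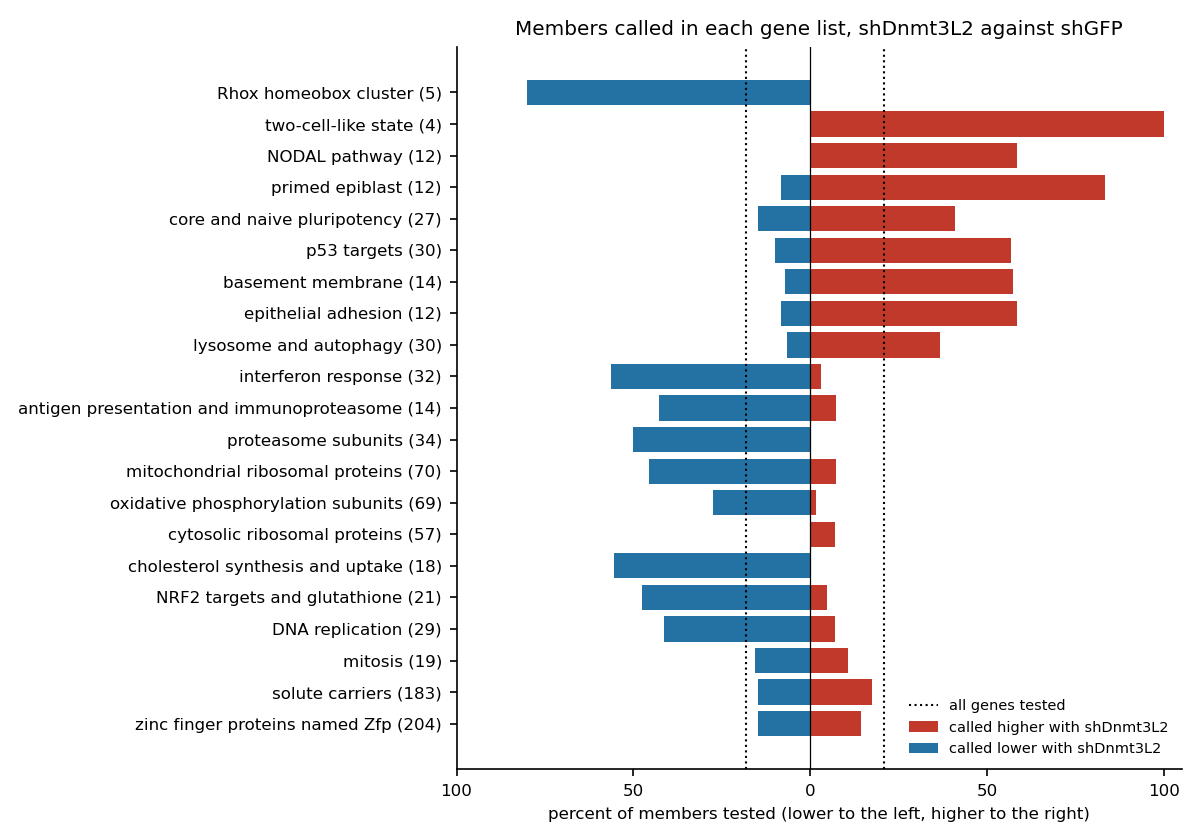
Percent of tested members called lower (left, blue) and higher (right, red) with shDnmt3L2 against shGFP in 21 gene lists, with the number tested in brackets. Dotted lines mark all genes tested, 18.3% lower and 20.8% higher. The lists were chosen with earlier results of these data known. Interferon, proteasome, mitochondrial ribosome and cholesterol lists extend to the left, and NODAL, primed epiblast, p53 and basement membrane lists to the right.

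Cholesterol synthesis fell, with 10 of 18 genes lower and 0 higher and a median of -0.36. Msmo1, a sterol demethylase, had 9.71 and 9.79 with shDnmt3L2, against 10.48 and 10.50 with shGFP, and fell by 0.75 ± 0.08. Pmvk fell by 0.60, Mvd by 0.57 and Fdps, which makes farnesyl diphosphate, by 0.50. Against shDnmt3L3 12 of the 18 were lower and 1 higher, beside 21.8% lower and 20.4% higher over all genes. Lower than with both other hairpins were 5, beside 2.74% of all genes. Msmo1 was lower than with shDnmt3L1 by -0.48 and than with shDnmt3L3 by -1.23. The desaturase Scd1 fell by 0.63 ± 0.08 and was lower than with the same 2 hairpins by -0.49 and -1.22. Of 21 NRF2 and glutathione genes 10 fell and 1 rose, and 5 fell without shGFP replicate 1 or without shDnmt3L2 replicate 1, with Nqo1 at -0.72, Hmox1 at -0.88 and Gstp1 at -0.54. Of 30 lysosome and autophagy genes 11 rose, 2 fell and 17 were not called, beside 20.8% higher and 18.3% lower over all genes. The count of rises was 7 without shGFP replicate 2 and 5 without shDnmt3L2 replicate 2. The membrane protein Lamp1 rose by 0.99 ± 0.08 and Map1lc3b by 0.87. Glycolysis had 6 of 17 genes higher and 1 lower, with Pfkl at 0.60. Of 17 hypoxia targets 5 rose and 4 fell, Ankrd37 by -1.01.

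DNA replication genes were lower for 12 of 29 and higher for 2, with a median of -0.20. Rrm2, a subunit of ribonucleotide reductase, had 8.41 and 8.45 with shDnmt3L2, against 9.25 and 9.34 with shGFP. It fell by 0.86 ± 0.08, a fall that rests on the probe chosen. The sliding clamp Pcna fell by 0.71, Cdc6 by 0.69 and Rfc3 by 0.84. Mitosis genes stood nearer to all genes, with 2 of 19 higher and 3 lower. Of 18 ribosome biogenesis and MYC targets 5 fell and 1 rose, led by nucleolin, Ncl (-0.86). The integrated stress response (2 higher and 3 lower of 16), the unfolded protein response (3 and 2 of 15), heat shock proteins (4 and 5 of 22) and cytosolic tRNA synthetases (3 and 1 of 17) had shares near or below the 20.8% higher and 18.3% lower of all genes. Within them Bag3, a co-chaperone, rose by 1.14 ± 0.09. Ddit3, a stress-induced transcription factor, fell by 0.67 ± 0.09, and the direct difference from shDnmt3L3 was -2.09 (limma, adjusted p = 3.60e-06).

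Basement membrane genes rose, 8 of 14 against 1 lower, beside 20.8% higher and 18.3% lower over all genes, with a median of 0.52. The collagen IV chains Col4a1 and Col4a2, which are transcribed from a shared promoter region, rose by 1.24 ± 0.08 and 1.12 ± 0.08. Col4a1 had 7.52 and 7.65 with shDnmt3L2, against 6.27 and 6.41 with shGFP. Perlecan, Hspg2, rose by 0.97, and the laminin chain Lama1 rose by 0.82 and was higher than with shDnmt3L1 by 0.95. Sparc fell by 0.46. Epithelial adhesion genes rose for 7 of 12 and fell for 1, led by Cldn4 (0.90) and Cdh3 (0.69). The rise of Cdh3 rests on the probe chosen. In the fibroblast list 5 of 8 tested genes rose, Acta2, the protease Mmp2 (1.18 ± 0.08), Col5a1 (0.75), Fn1 (0.56) and Thy1, beside the 6 defining fibroblast markers that were not detected on any of the 4 arrays.

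Few genes of the embryonic lineage lists passed the detection filter. Their counts stand beside 20.8% higher and 18.3% lower over all genes. Of 7 neuroectoderm genes 4 rose and 0 fell: Gli3, a Hedgehog effector (0.96 ± 0.10), Dll1 (0.60), Nes (0.57) and Otx2. Of 10 trophectoderm genes 5 rose and 0 fell, among them Plac8 (0.82), Tead4 (0.67) and Krt7 (0.94, detected on 1 shGFP array). Of 8 endoderm genes 3 rose and 3 fell, with Dab2, an endocytic adaptor, at 1.20 ± 0.13, Hnf4a at 0.96 and Cxcr4 at -0.57. The rises of Nes, Tead4 and Dab2 rest on the probe chosen. Of 8 mesoderm genes 3 rose and 2 fell. Of the defining markers of these layers named above, Nes was detected on all 4 arrays and Pdgfra on 1 shGFP array, and the others were not detected.

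Polycomb components lay near the 20.8% higher and 18.3% lower of all genes. Of 30 tested 6 rose and 5 fell, with Phc1 (0.56), Phc2 (0.58) and Phf19 (-0.70) as the largest named. The rise of Phc1 rests on the probe chosen. Of 23 genes of heterochromatin, NuRD and histone demethylation 6 rose and 3 fell, with Mta1 at 0.82, Mta3 at 0.75 and the HP1 protein Cbx3 at -0.59. The big families lay below the share of all genes: of 204 zinc finger genes named Zfp 29 rose and 30 fell (rises 17 to 19 without any 1 of the 4 arrays), and of 183 solute carriers 32 rose and 27 fell. Zfp362 rose by 1.30 ± 0.07, and the glutamate transporter Slc1a3 had 8.83 and 8.67 with shDnmt3L2, against 7.52 and 7.23 with shGFP, a rise of 1.37 ± 0.11. Of 47 Rab GTPases 8 rose and 5 fell, Rab15 by 0.99. Of 12 housekeeping genes 2 rose and 1 fell, and Gapdh (0.07) and Actb (-0.04) were not called.

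Detection itself changed for some genes. On both shDnmt3L2 arrays and no shGFP array 223 of the 10930 genes tested were detected, of which 166 were called higher. The reverse held for 113 genes, of which 77 were called lower. Genes picked by detection in 1 group tend to be brighter there, so these calls follow largely from the selection. Some lie close to the detection limit, with bounds down to 1.0007-fold higher for Spink10 and 1.034-fold lower for Allc. On all 4 arrays 9077 genes were detected. Where a called gene had other detected probes, 81.4% of those 2684 probes had the same sign, and of 1230 that were also called 76 had the opposite sign. Of the 239 called genes chosen for naming, 101 had another probe, and 51 of those had one that was not called or had the opposite sign. Among the genes described above, such a probe gave -0.03 for Rrm2, 0.12 for Dab2, -0.04 for Zic2, 0.04 for Dlk1, 0.12 for Grb10 and 0.13 for Nes. It gave -0.01 for Cdh3 and Tead4, -0.04 for Phc1 and 0.10 for Cycs. The changes of these genes rest on the probe chosen. They are not all of the 51, so a gene given without its other probes may be among the rest.

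To find what set shDnmt3L2 apart, it was compared with each of the other hairpins directly, without the shGFP arrays. Higher than with both were 208 genes (1.90%), and lower than with both 299 (2.74%). Among the higher, several kept closer to the control than the other knockdowns did. Spink1, a trypsin inhibitor, had 9.48 and 9.56 with shDnmt3L2, 7.41 and 7.56 with shDnmt3L1, 7.73 and 7.81 with shDnmt3L3 and 10.40 and 10.48 with shGFP. En1, a homeobox gene of the midbrain and hindbrain boundary, had 7.22 and 7.18 with shDnmt3L2, 5.90 and 5.85 with shDnmt3L1, 4.88 and 4.99 with shDnmt3L3 and 7.51 and 7.41 with shGFP. Enox1 showed this order too, with differences from shGFP of -0.53 with shDnmt3L2 and -2.64 with shDnmt3L3. Samd9l differed from shGFP by -0.31 with shDnmt3L2 and was not above background with shDnmt3L3, which puts shDnmt3L2 at least 4.11-fold above shDnmt3L3.

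Others stood above the control too. Trh, the precursor of thyrotropin-releasing hormone, had 13.46 and 13.51 with shDnmt3L2, 12.87 and 12.78 with shDnmt3L1, 11.58 and 11.71 with shDnmt3L3 and 12.79 and 12.82 with shGFP. Setd1b, a histone H3 methyltransferase, was higher than with shGFP by 0.45 and differed from shGFP by -1.57 with shDnmt3L3. Gnat1 was detected on both arrays with shDnmt3L2, on no array with shDnmt3L1 or shGFP and on 1 with shDnmt3L3, and was at least 2.31-fold higher than with shDnmt3L1. Since it passed the detection filter through shDnmt3L2, its place here follows largely from that selection. On the lower side, Txnip, an arrestin that restrains glucose uptake, had 11.02 and 10.90 with shDnmt3L2, 11.79 and 11.77 with shDnmt3L1, 12.96 and 12.98 with shDnmt3L3 and 10.92 and 10.93 with shGFP. Espn, Tuft1 and Ppp1r3c likewise had no call against shGFP with shDnmt3L2 (-0.01, -0.03 and -0.11) and 1.80, 1.73 and 1.69 with shDnmt3L3. Gadd45b, Ifi30, a lysosomal thiol reductase, and Ovgp1 fell with shDnmt3L2 by 0.79, 0.49 and 0.57, and had 0.64, 1.15 and 1.45 with shDnmt3L3.

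**Figure D5:**
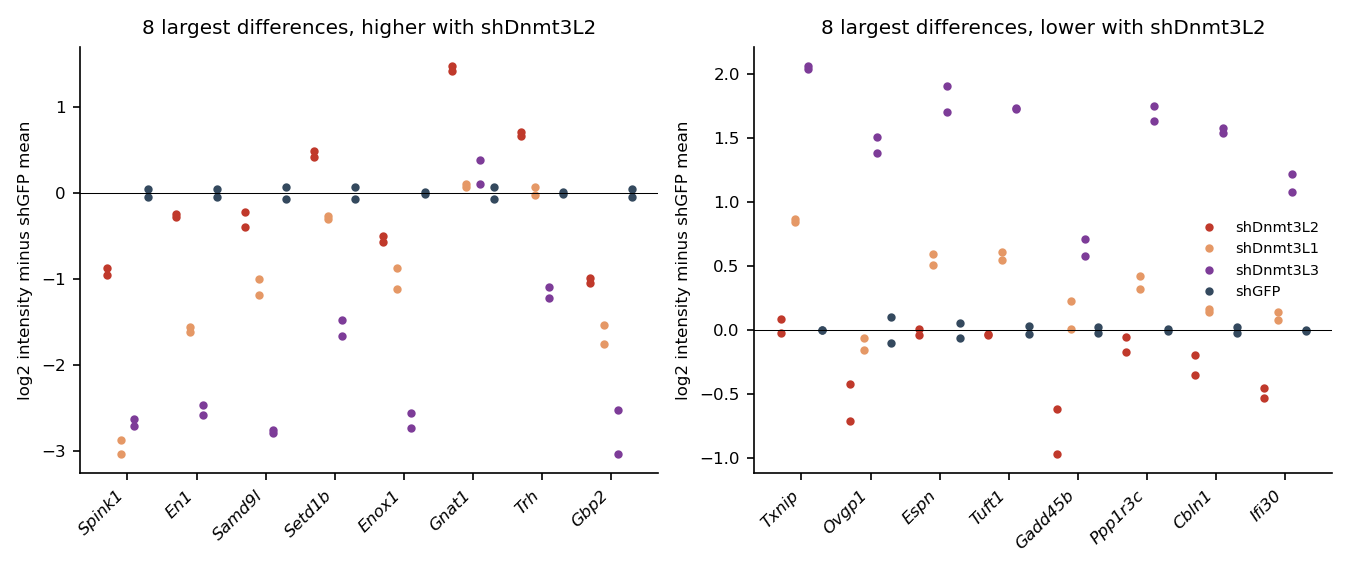
Log2 intensity of each array minus the shGFP mean (y axis) for the 8 genes with the largest difference above (left) and below (right) both other hairpin groups, among genes called against each. Points are single arrays in the order shDnmt3L2, shDnmt3L1, shDnmt3L3 and shGFP. For Txnip, Espn, Tuft1 and Ppp1r3c the shDnmt3L2 points lie near the shGFP points at 0, and Trh and Setd1b lie above them.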

How the data were processed

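Total RNA of 8 arrays was labelled with Cy3 and read on Illumina BeadChips. The deposited non-normalized table holds a linear intensity per probe and array, and per the file headers an unnamed column beside each, read here as its detection p-value. The submitters' processing notes name GenomeStudio 2011.1; further steps do not appear in those notes or the labels. The authors' deposited processed intensity served as an alternative only. Background correction from detection p-values (offset 16), quantile normalization and log2 were done with limma 3.58.1 in R 4.3.3, the method of neqc. Of 45281 probes, 34885 had 1 gene in the platform annotation. Probes detected (p under 0.05) on at least 2 arrays and with 1 gene (17301) were kept, and the brightest probe stood for each of 10930 genes. All 8 arrays entered 1 limma fit of 4 group means (4 residual and 4.64 prior degrees of freedom), with two-sided tests and Benjamini-Hochberg adjustment. Where a group was not above background on any array, a bound is given, with each array of that group set to its lowest detected value or the probe's own value, whichever was higher. Groups came from the labels. Named genes were Dnmt3l and a fixed list, the 15 largest rises and falls among called genes whose arrays do not overlap, the 8 largest differences on each side from both other hairpins, and the 4 called members with the smallest p in each of 54 lists. Members and lists were chosen with earlier results of these data known, and assembly factors were dropped from the oxidative phosphorylation list after its values were seen. Promoters are RefSeq windows (GRCm38.p6), and the most upstream window stood for a gene with several. The fit was tested on simulated data. The chip of each array is not named in the labels or headers, so it was not tested as a batch. Alternatives were another offset, scaling, filter, probe rule and prior, a replicate block, the 4 arrays alone and each array left out.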

Additional observations from a re-analysis of the deposited data

Results flagged for a closer look

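The direct comparisons of the hairpins set genes of shDnmt3L2 apart from both others: 208 were higher and 299 lower than with shDnmt3L1 and with shDnmt3L3, by limma's test of each difference. The values that follow are shDnmt3L2 minus the mean of the other 2 hairpin groups on the log2 scale, for the genes with the largest differences. Higher were Spink1 by 1.90, En1 by 1.79, Samd9l by 1.62, Setd1b by 1.37, Enox1 by 1.28, Gnat1 by 1.28, Trh by 1.25 and the guanylate-binding protein Gbp2 by 1.19. Lower were Txnip at -1.42, Ovgp1 at -1.24, Espn at -1.19, Tuft1 at -1.19, Gadd45b at -1.17, Ppp1r3c at -1.14, Cbln1 at -1.13 and Ifi30 at -1.12. Gnat1 was detected on no array with shDnmt3L1 and on 1 with shDnmt3L3, and Samd9l on none with shDnmt3L3. Their values and places therefore rest partly on background, with bounds of at least 2.31-fold for Gnat1 over shDnmt3L1 and 4.11-fold for Samd9l over shDnmt3L3. Gnat1 also passed the detection filter through shDnmt3L2, which favours its being higher there. Gbp2 itself fell by 1.02 with shDnmt3L2 against shGFP, and Cbln1 fell by 0.27, a call lost in 5 of 19 alternatives. Other probes of Espn gave 0.14 and -0.37 against shGFP, and neither was called against shDnmt3L1.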

How the results depend on the processing

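The fall of Dnmt3l was called under every alternative run, between -1.28 and -1.08 (-1.20 to -1.08 with 1 array left out). The total of calls lay between 3157 (without shDnmt3L2 replicate 2) and 4811, and 4137 genes were called with the replicate block. Same-numbered shDnmt3L2 and shGFP arrays showed no shared deviation across genes, at a correlation of 0.00307. That cannot show whether they were prepared together, which the labels do not state. With 1 array left out, which leaves a lone sample assumed to vary like the other groups, 3157 to 4182 genes changed, 1721 to 2216 higher and 1419 to 1966 lower, 692 to 747 higher and 461 to 503 lower at least 1.5-fold, and 112 to 442 were set apart from both other hairpins (38 to 177 higher, 70 to 265 lower). Leaving out shDnmt3L2 replicate 1 or 2 gave 121 or 112 of the last kind and shDnmt3L1 replicate 1 or 2 gave 114 or 112, against 507 with all arrays. An offset of 50 gave 354 higher and 232 lower at least 1.5-fold and 950 set apart (430 higher, 520 lower), and no background correction gave 214, 138, 1078, 488 and 590 in the same order. Both compress differences of dim genes by construction. Median scaling gave 299 lower at least 1.5-fold, a detection p under 0.01 gave 319 set apart higher, and an intensity trend with a robust prior gave 985 (431 higher, 554 lower). The 4 arrays alone cannot give those counts. Of the named genes, Itgav changed sign to -0.10 when a gene's probes were averaged, and 10 gene results gained and 157 lost their call over all alternatives. The cause was not tested. Pou5f1, Trp53inp1 and Mdm2 lost their calls in 13, 12 and 8 of 19 alternatives, and Cbln1, Fgf5 and Sox2 in 5, 4 and 4. Over all lists and alternatives, 304 medians moved by more than the spread between arrays and 191 counts by over 1.5 times. Without background correction the median was 0.29 for basement membrane, 0.35 for primed epiblast, -0.18 for cholesterol and -0.17 for interferon genes, and 30 oxidative phosphorylation and 19 DNA replication genes fell. Without the detection filter, which adds undetected members, it was 0.28 for NODAL, -0.16 for interferon, 0.20 for epithelial adhesion, 0.08 for neuroectoderm, 0.07 for fibroblast, 0.11 for 2-cell-like and -0.14 for Rhox genes. With median scaling 44 Zfp genes rose and 18 fell. In the gene lists, the direction with more calls turned under at least 1 alternative for germ line genes silenced by methylation, apoptosis, the integrated stress and unfolded protein responses, tRNA synthetases, Polycomb, solute carriers, Zfp and housekeeping genes.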

Other observations

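Of 13 integrins and cadherins of mesenchyme 4 rose, beside 20.8% of all genes, and 0 fell. Among the rises were the integrin chain Itgb5 (0.77 ± 0.09), the integrin-associated protein Cd47 (0.68 ± 0.07) and Itga6 (0.38). The call of Itga6 was lost in 1 of 19 alternatives. Of 17 actin cytoskeleton genes and targets of SRF or YAP 5 rose and 2 fell: the tropomyosin Tpm4 rose by 0.81 ± 0.08 and the calponin Cnn2 fell by 0.71 ± 0.12. In the direct comparison with shDnmt3L3, 11 of those 17 were higher with shDnmt3L2 and 1 was lower, beside 20.4% and 21.8% of all genes.

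Of 4 histone genes tested, the linker histone H1f2 rose by 1.14 ± 0.10, with 8.52 and 8.38 with shDnmt3L2 against 7.41 and 7.22 with shGFP, and the other 3 were not called. Of 12 genes of small RNA processing 1 rose and 2 fell, no larger a share than the 20.8% and 18.3% of all genes. The slicer Ago2 was at -0.53 ± 0.09 with shDnmt3L2 and at 0.26 with shDnmt3L3, a direct difference called by limma (adjusted p = 0.000287).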
